A study of Bos taurus with 6 samples.

Results

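Quantitative PCR measures a transcript against a reference gene that is taken to be level between samples, so any movement of the reference passes into every value normalized to it. 9 genes that are commonly used for this purpose in muscle were examined here in the longissimus dorsi muscle of cattle of 2 breeds. They were ACTB, B2M, HPRT1, TBP, YWHAZ, PPIA, GUSB, TOP2B and UXT, chosen by name and matched to the gene names that the transcript files carry. All 9 were listed in all 6 animals, among 18010 genes listed in total, and all 9 passed the filter on low values (in 1 breed or both, the mean FPKM had to reach 1), which 9781 genes passed.

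The RNA of the longissimus dorsi of 3 Shandong black cattle (B1, B2 and B3) and 3 Luxi cattle (L1, L2 and L3) was sequenced, with 1 library for each animal. The animals were 18 months old, and the labels do not give their sex. Shandong black cattle are a crossbred line with Japanese black, Luxi and Bohai black ancestry, so the breeds share part of their background, and the animals of each breed came from a different company, so breed and herd cannot be told apart. The level of a gene is its FPKM, the fragments of a transcript scaled by its length and by the size of the library, summed over its transcripts, which puts genes of different length on 1 scale.

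A reference gene is usually a housekeeping gene, one whose product every cell needs at all times. The 9 genes work in unrelated parts of the cell, which is the reason such genes are used as a panel: a shift in 1 process should not move them all. ACTB is the cytoplasmic actin of the cytoskeleton, B2M is the light chain of MHC class I molecules, and HPRT1 and GUSB are enzymes of purine salvage and of lysosomal breakdown of glycosaminoglycans. PPIA is the prolyl isomerase cyclophilin A, YWHAZ is a 14-3-3 adaptor protein of cell signalling, and TBP is the TATA-binding protein of transcription initiation. TOP2B is a DNA topoisomerase, and UXT is a prefoldin-like chaperone and transcription cofactor. GAPDH, a glycolytic enzyme that is widely used as a reference and is among the qRT-PCR primers of the study, was set beside them.

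The libraries held between 14.08 and 14.62 aligned gigabases in Shandong black cattle and between 17.52 and 17.99 in Luxi cattle. Muscle fibre markers were present in all animals, with a summed FPKM of 46487 to 57106 in the Shandong black cattle and 24241 to 74210 in the Luxi cattle. L1 stood apart, with the lowest summed fibre markers and the largest number of listed transcripts (175373). Values without it are given where it moved a gene most. ACTA1 was the largest part of the fibre sum in every animal (12237 FPKM in L1). ACTA1, CKM, DES and MYH7 were lowest in L1, and MB, TTN, TNNT1, TNNT3, MYH1 and MYH2 were not. Of the markers of other cells, 5 of 6 fat cell genes were called lower in Luxi cattle (summed FPKM 116 to 180 against 3.09 to 19.2, with LEP at 0 in an animal) and 2 of 6 fibroblast genes higher (113 to 169 against 384 to 511). No immune (summed FPKM 68.6 to 89.7 against 40.6 to 126, with AIF1 and CD3E at 0 in an animal), endothelial (17.0 to 18.1 against 22.5 to 63.4) or smooth muscle and pericyte marker (56.4 to 67.8 against 37.0 to 243) was called by limma, and 1, 2 and 1 of those tested had an unadjusted p under 0.05. CD74 made up most of the immune sum in every animal. Whether these shifts in cell markers have a part in the values below was not tested. In bulk tissue, fewer cells of a type and less RNA per cell cannot be told apart.

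The 9 genes were expressed at very different levels. ACTB was the most abundant, with a mean FPKM of 166 ± 36.8 (SD, n = 6), and it exceeded the next gene in 6 of 6 animals. B2M (39.5 ± 17.2) and PPIA (38.0 ± 11.6) followed and did not separate, as B2M was the higher in 4 animals. HPRT1, YWHAZ, UXT and TOP2B formed a middle group with mean FPKM from 9.11 down to 6.46, in which each gene exceeded the next in only 3 or 4 animals. GUSB (2.47 ± 0.718) and TBP (1.45 ± 0.295) were the lowest, and GUSB exceeded TBP in 4 animals. The coverage behind these values ranged from 16.9 reads per base for TBP in B3 to 3375 for ACTB in L3. GAPDH, at 2135 to 9259 FPKM, lay more than an order of magnitude above ACTB in every animal.

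**Figure D1:**
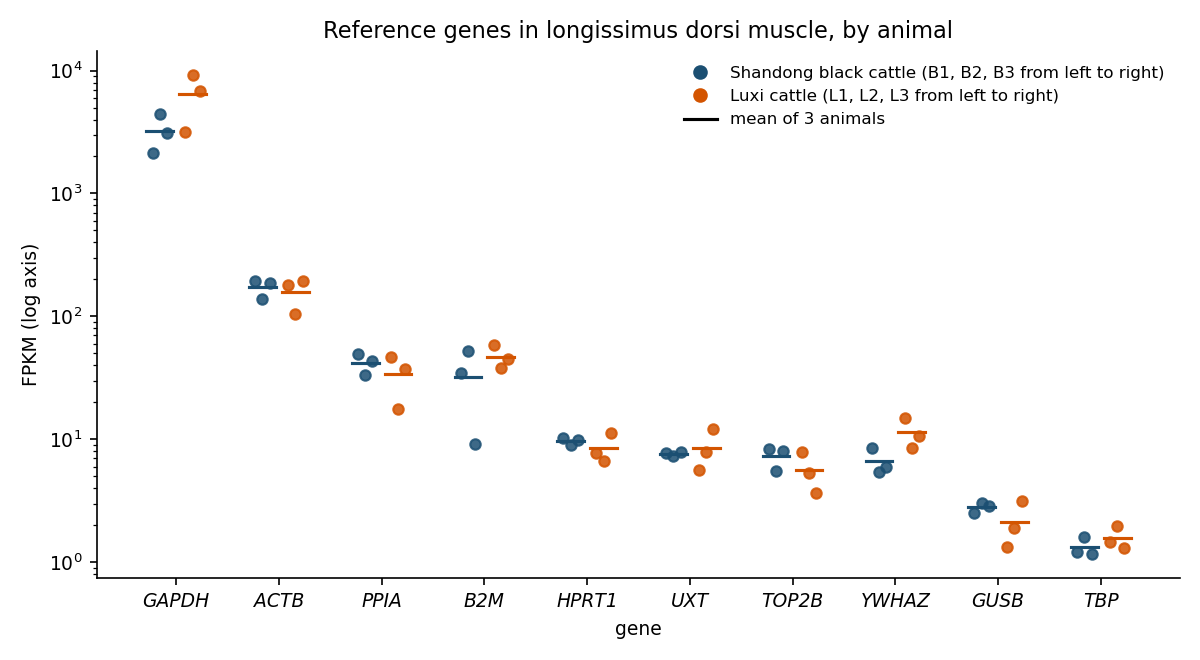
FPKM of the 9 reference genes and of GAPDH (log axis) in each of the 3 Shandong black cattle and 3 Luxi cattle, with a bar at the mean of each breed. The genes are ordered by their mean in Shandong black cattle, the breeds overlap for every gene except YWHAZ, and the B2M value of B3 (9.21) lies far below the other B2M values.

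None of the 9 reference genes was called between the breeds at an adjusted p of 0.05 and a log2 fold change of 1 (limma on log2(FPKM + 1), Benjamini-Hochberg over all genes tested). Over all genes tested 251 were called, or 2.57%, so a count of 0 among 9 does not set the reference genes apart. 1 of the 9 had an unadjusted limma p under 0.05, against 21.8% of all genes, and 1 of the 9 had no overlap between the breeds, against 29.1% of all genes. In both cases the gene was YWHAZ. 4 of the 9 point estimates were higher in Luxi cattle and 5 were lower, with a median log2 fold change of -0.16, while the median over all genes tested was 0.13. Fold changes are given as Luxi over Shandong black cattle throughout, on the log2(FPKM + 1) scale, which understates the change of the genes with the lowest levels.

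A missing call does not show that a gene was level, so the 95% interval of each difference was examined as well. For 5 of the 9 genes (TBP, HPRT1, UXT, GUSB and ACTB) the whole interval lay within 1 log2 unit either side of no change, so that a difference of more than 1 log2 unit lay outside it. The same was true of 59.3% of all genes tested. No reference gene had its interval within 0.5 log2 units, which 664 of the 9781 genes tested had. For B2M, YWHAZ, PPIA and TOP2B the interval reached past 1 log2 unit on 1 side. Which genes lay within 1 log2 unit depended on the scale. With 0.1 FPKM added in place of 1, the interval of GUSB was -1.21 to 0.29. It also reached past -1 with TPM and with quantile normalization. The interval of ACTB did so with TPM, size factors and quantile normalization. TBP, HPRT1 and UXT stayed within 1 log2 unit on each of these scales.

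**Figure D2:**
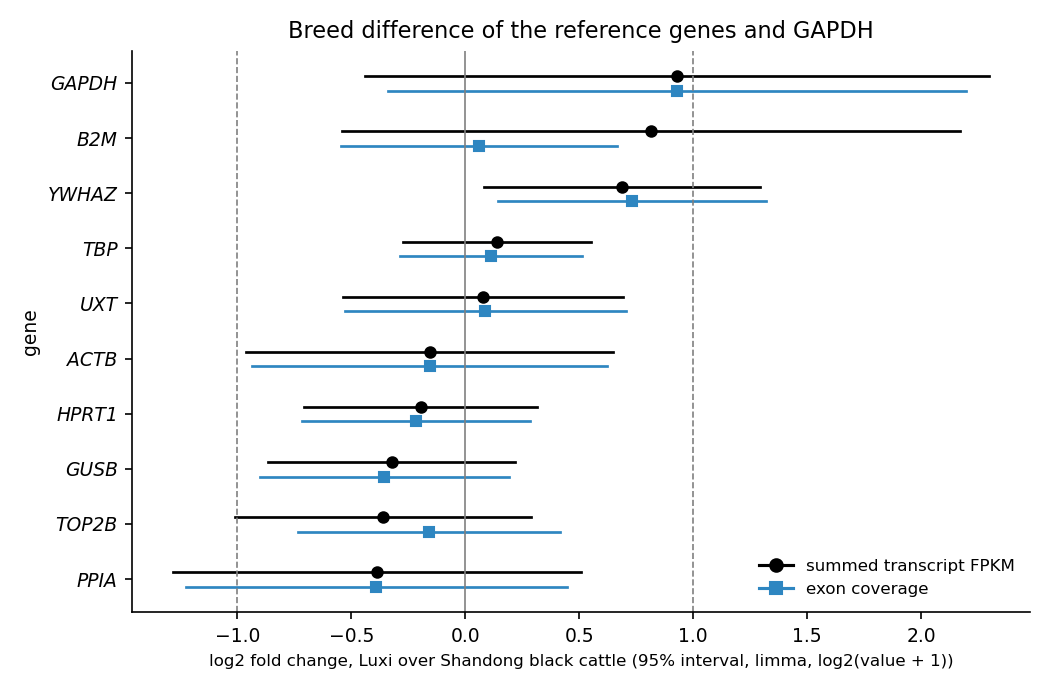
Log2 fold change of each reference gene and of GAPDH, Luxi over Shandong black cattle, with the 95% limma interval, from the summed transcript FPKM (circles) and from the coverage of the annotated exons (squares). Dashed lines mark 1 log2 unit either side of 0, and the 2 scales part for B2M (0.81 against 0.06) and TOP2B (-0.36 against -0.16).

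ACTB, on chromosome 25 (38799230 to 38802643, plus strand, ARS-UCD1.2), was listed with a single reference transcript. Its FPKM was 195, 138 and 186 in B1, B2 and B3 and 180, 104 and 193 in L1, L2 and L3. The breeds overlapped fully, and the lowest animal of each breed was the one numbered 2. The log2 fold change was -0.16 (95% interval -0.96 to 0.65, adjusted p = 0.82), and the SD across the 6 animals was 0.36 log2 units, with 53.4% of all genes tested showing a smaller one. Western blots of the study used beta-actin protein as their loading control, and the values here concern its transcript only.

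ACTB belongs to a family of actins of nearly identical coding sequence, and reads from the others may be placed on it. ACTG1, the other cytoplasmic actin, followed the same order of animals as ACTB within Shandong black cattle, at 142, 98.4 and 129 FPKM, and was also lowest in L2 among Luxi cattle, at 136, 75.3 and 145. The sarcomeric actins ACTA1 and ACTC1 were lowest in L1 among Luxi cattle. Within Shandong black cattle ACTC1 followed the order of ACTB, and ACTA1 did not. ACTA1, the skeletal muscle actin, was the most abundant at 12237 FPKM in L1 and 32188 to 54910 in the other animals, and was not called (adjusted p = 0.89). ACTC1, the cardiac actin that is expressed in developing and regenerating muscle, fell from 946, 278 and 735 FPKM in Shandong black cattle to 5.53, 7.62 and 26.7 in Luxi cattle (log2 fold change -5.64, adjusted p = 0.015). It was the single called gene among the 15 tested paralogs of the 9 reference genes, and 2.57% of all genes tested were called.

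B2M, on chromosome 10 (103095506 to 103103791, plus strand), was the least stable of the 9 when the transcript FPKM was summed. Its FPKM was 34.8, 52.0 and 9.21 in B1, B2 and B3 and 58.4, 37.9 and 44.6 in L1, L2 and L3. B3 was the low value, and the other 5 animals lay between 34.8 and 58.4. Its log2 fold change was 0.81 (95% interval -0.54 to 2.17, adjusted p = 0.44), and 94.7% of all genes tested had a smaller SD than its 0.92. Without B3 the log2 fold change of B2M was 0.12, and with reference transcripts only it was 2.66.

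The low value of B3 went together with a feature of the annotation. A second gene, LOC783680, starts 12621 bases after the end of B2M on the same strand (103116413 to 103122698). Exons 2 and 3 of both genes have the same lengths, 276 and 28 bases, and the intron between them is 525 bases in both, so reads may be shared between the 2 genes and the files do not tell which copy a read came from. In every animal StringTie also listed assembled transcripts that joined exons of B2M to exons of LOC783680. These joined transcripts held 27.4, 51.8 and 70.5 FPKM in B1, B2 and B3, against 22.6, 5.86 and 11.99 in L1, L2 and L3.

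As a share of the FPKM at the 2 genes, the joined transcripts came to 31.7%, 80.3% and 87.5% in B1, B2 and B3 and to 15.3%, 6.90% and 11.5% in L1, L2 and L3. All 3 Shandong black cattle lay above all 3 Luxi cattle. In B2 the joined transcript had 52.0% of its bases on the exons of B2M and was counted there, while the B2M reference transcript held 0.143 FPKM. In the other 5 animals the joined transcripts did not reach that share and were counted with LOC783680, which left B2M with its reference transcript alone, at 9.21 FPKM in B3.

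When the coverage of all transcripts over the annotated exons was used in place of the sum, an alternative chosen after these values were seen, B2M became one of the steadier genes. On this scale, brought to FPKM units, it was 50.4, 45.2 and 53.5 in B1, B2 and B3 and 68.6, 40.6 and 49.7 in L1, L2 and L3. Between the breeds the log2 fold change was then 0.06 (95% interval -0.55 to 0.67, adjusted p = 0.91), and the SD was 0.25 in place of 0.92. LOC783680 had a similar exon coverage, 41.8, 60.2 and 63.2 against 75.6, 43.9 and 53.5, and a log2 fold change of 0.05. With exon coverage, 7 of the 9 reference genes had their interval within 1 log2 unit (B2M and TOP2B in addition), against 65.7% of the 9280 genes tested on that scale.

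**Figure D3:**
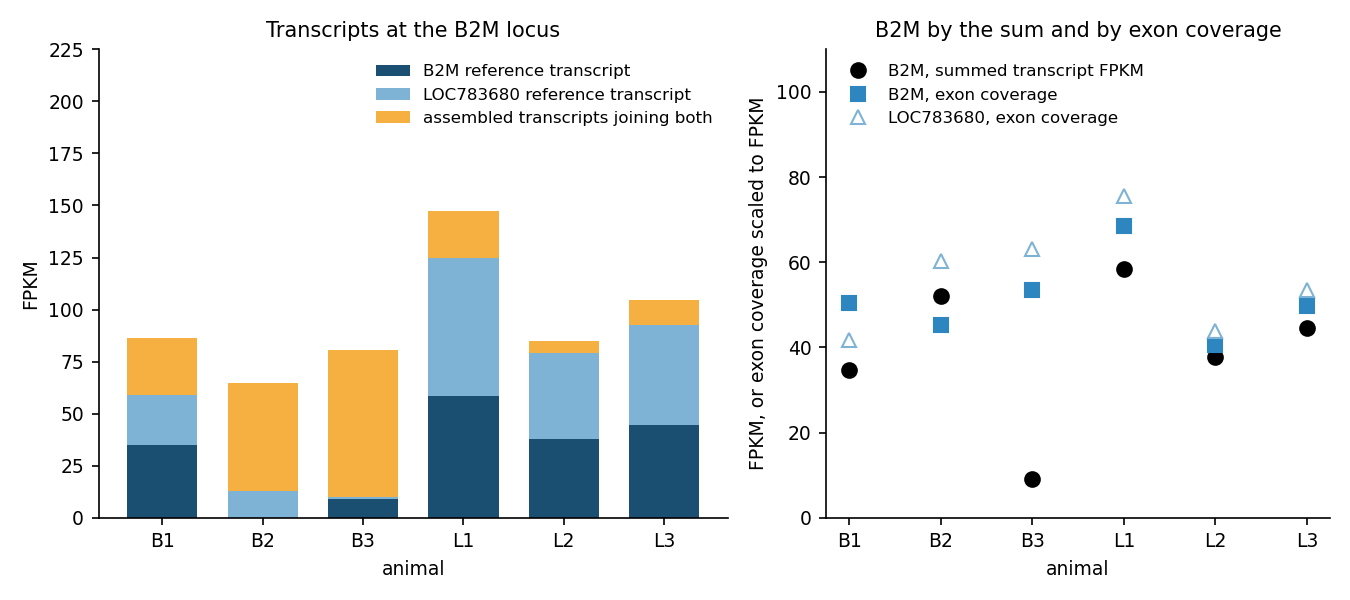
Left, FPKM of the B2M reference transcript, the LOC783680 reference transcript and the assembled transcripts that join both genes, stacked for each animal. Right, B2M by the summed FPKM and B2M and LOC783680 by exon coverage (in FPKM units); the joined transcripts hold most of the FPKM in B2 and B3, and the exon coverage of B2M stays between 40.6 and 68.6.

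HPRT1 lies on the X chromosome (18177361 to 18208571, plus strand). Its FPKM was 10.2, 9.06 and 9.87 in B1, B2 and B3 and 7.74, 6.67 and 11.1 in L1, L2 and L3. L1 and L2 lay below the 3 Shandong black cattle and L3 lay above them. Between the breeds HPRT1 had a log2 fold change of -0.20 (95% interval -0.71 to 0.32, adjusted p = 0.63), and the SD of 0.25 was the second lowest of the 9, with 27.0% of all genes tested below it. HPRT1 had a coefficient of variation of 18.2% over the 6 animals, the lowest of the 9 on the FPKM scale. Without L3 its log2 fold change was -0.39 and the breeds did not overlap, and without L2 it was -0.05.

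UXT is the other X-linked gene (86023688 to 86030097, minus strand). Its FPKM was 7.78, 7.31 and 7.88 in B1, B2 and B3 and 5.59, 7.87 and 12.02 in L1, L2 and L3. The Shandong black cattle were nearly level and the Luxi cattle lay on both sides of them. For UXT the log2 fold change was 0.08 (95% interval -0.54 to 0.69, adjusted p = 0.89), and it was below 0 with TPM, with size factors, with quantile normalization and without L3. Without L1 it was 0.31. XIST, the RNA of the inactive X chromosome, was 10.7, 4.83 and 14.04 FPKM in Shandong black cattle and was listed at 0, 0 and 0.207 in Luxi cattle, so breed and what separates the animals in XIST cannot be told apart, for these X-linked genes and for all the others.

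GUSB, on chromosome 25 (27906362 to 27918749, minus strand), had an FPKM of 2.50, 3.05 and 2.86 in B1, B2 and B3 and 1.34, 1.88 and 3.15 in L1, L2 and L3. L1 and L2 lay below every Shandong black animal, and L3 was the highest of all 6. This gave a log2 fold change of -0.32 (95% interval -0.86 to 0.22, adjusted p = 0.44). In L1, 57.8% of the GUSB level came from assembled transcripts, while in the other 5 animals all of it came from the reference transcript. Without L1 the log2 fold change of GUSB was -0.13, and without L3 it was -0.55 (adjusted p = 0.23) and the breeds did not overlap.

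PPIA, on chromosome 4 (76709321 to 76713309, minus strand), had an FPKM of 49.0, 33.5 and 43.2 in B1, B2 and B3 and 47.0, 17.5 and 37.5 in L1, L2 and L3. The breeds overlapped, and the lowest animal of each breed was again the one numbered 2, with L2 far below the rest. The log2 fold change was -0.39 (95% interval -1.28 to 0.51, adjusted p = 0.59), and the SD of 0.53 exceeded that of 77.9% of all genes tested. Without L2 the log2 fold change of PPIA was 0.02, and without L1 it was -0.67. PPIA has processed pseudogenes in mammals, and reads may be shared with them. 1 of its 3 reference transcripts, of 519 bases, held between 92.4% and 94.3% of the level in every animal, so the spread did not go with a change of transcript.

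YWHAZ, on chromosome 14 (63394416 to 63429119, plus strand), was the reference gene that came closest to a breed difference. Its FPKM was 8.43, 5.43 and 5.97 in B1, B2 and B3 and 15.0, 8.47 and 10.6 in L1, L2 and L3. The lowest Luxi value, L2, was only just above the highest Shandong black value, B1, and L1 was the highest of all. This gave a log2 fold change of 0.69 (95% interval 0.08 to 1.29), with an unadjusted limma p of 0.031 and an adjusted p of 0.18. By exact permutation of the animals (two-sided) p was 0.1, which 3 against 3 animals cannot go below. Without L1 the log2 fold change was 0.48, and with exon coverage over all animals it was 0.73. With TPM, size factors or quantile normalization the breeds overlapped, and the 95% interval included 0.

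YWHAZ is read out as 3 reference transcripts. A transcript of 841 bases held 7.58, 5.15 and 5.27 FPKM in B1, B2 and B3 and 10.8, 7.23 and 8.69 in L1, L2 and L3, so L2 lay below B1 and the breeds overlapped. The other 2 transcripts, of 3206 and 3012 bases, held 0.850, 0.289 and 0.693 FPKM together in B1, B2 and B3 and 4.25, 1.24 and 1.93 in L1, L2 and L3. Their share of YWHAZ was 10.1%, 5.32% and 11.6% against 28.3%, 14.6% and 18.1%, without overlap.

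None of the other 14-3-3 genes tested was called, and their point estimates lay on both sides of 0. YWHAE, the most abundant of them, was 145, 133 and 138 FPKM in B1, B2 and B3 and 98.5, 148 and 146 in L1, L2 and L3 (log2 fold change -0.11). YWHAH was lower in every Luxi animal than in any Shandong black animal, at 47.9, 34.5 and 44.3 against 31.2, 18.3 and 26.7, and was not called (adjusted p = 0.18). YWHAB, at 14.3 to 19.8 FPKM, had an SD of 0.16, well under the 0.48 of YWHAZ.

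TBP, on chromosome 9 (104093196 to 104106538, plus strand), was the lowest of the 9 in level. Its FPKM was 1.22, 1.605 and 1.17 in B1, B2 and B3 and 1.46, 1.96 and 1.298 in L1, L2 and L3. The breeds overlapped, and here the animals numbered 2 were the highest of each breed, opposite to ACTB and PPIA. TBP had a log2 fold change of 0.14 (95% interval -0.27 to 0.55, adjusted p = 0.68). Its SD of 0.17 log2 units was the lowest of the 9, with 9.78% of all genes tested below it, but at this level the added 1 FPKM compresses the scale, and its coefficient of variation of 20.3% was above that of HPRT1 (18.2%) and close to that of ACTB (22.2%). 2 reference transcripts of 2201 and 1905 bases shared the level unevenly, the first not being listed in L1 and L3.

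TOP2B, on chromosome 27 (40133875 to 40196656, plus strand), had an FPKM of 8.26, 5.57 and 8.07 in B1, B2 and B3 and 7.91, 5.29 and 3.66 in L1, L2 and L3. Each Luxi animal lay below the Shandong black animal of the same rank, and the breeds overlapped. The log2 fold change was -0.36 (95% interval -1.01 to 0.29, adjusted p = 0.48). With exon coverage it was -0.16, without L3 -0.13, and without L1 -0.60 (95% interval -1.16 to -0.03, adjusted p = 0.15), where the breeds did not overlap. Its level was divided over 7 reference transcripts of nearly equal length, of which 1 held between 49.0% and 72.1%. That transcript held 4.09, 4.01 and 3.95 FPKM in B1, B2 and B3 and 4.28, 3.16 and 2.27 in L1, L2 and L3. A second, of 5198 bases, held 3.02 FPKM in B1, 2.24 in B3 and no more than 0.818 in the other 4 animals.

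**Figure D4:**
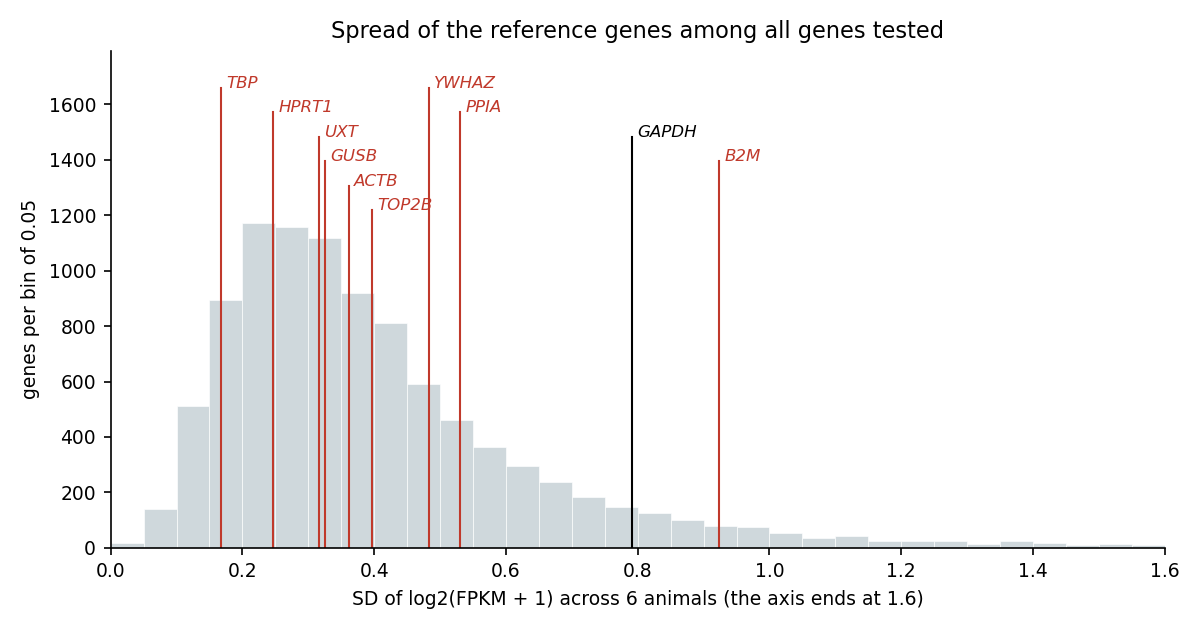
Histogram of the SD of log2(FPKM + 1) across the 6 animals for the 9781 genes tested, with a line for each reference gene (red) and for GAPDH (black). TBP (0.17) and HPRT1 (0.25) lie on the low side of the bulk of genes, PPIA (0.53) and B2M (0.92) on the high side, and GAPDH is at 0.79.

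Across the 6 animals the spread of the reference genes lay around that of all genes tested. Their median SD was 0.36 log2 units, and the median over all genes tested was 0.34. With exon coverage the medians were 0.33 and 0.32. 4 of the 9 (TBP, HPRT1, UXT and GUSB) had an SD below the median of all genes tested. The coefficient of variation ran from 18.2% for HPRT1 over 20.3% for TBP, 22.2% for ACTB, 26.3% for UXT, 29.1% for GUSB, 29.3% for TOP2B, 30.5% for PPIA and 38.9% for YWHAZ to 43.6% for B2M. This order depends on the scale: with TPM, UXT was lowest in coefficient of variation (15.1%, against 19.0% for HPRT1) and in SD (0.20).

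The spread was mostly larger among the Luxi cattle. UXT had a coefficient of variation of 3.93% among Shandong black animals and 38.4% among Luxi animals, HPRT1 5.97% and 27.5%, and GUSB 9.91% and 43.7%. 8 of the 9 genes varied more in Luxi cattle, the exception being B2M, and 67.3% of all genes tested did so. Without L1, with L2 and L3 alone set against 3 Shandong black cattle, 7 of the 9 still varied more in Luxi cattle. Over all genes the share was then 45.9%. A spread taken from fewer animals tends to come out smaller, so these shares cannot be compared directly with those from 3 against 3 animals. With exon coverage and L1 kept in, all 9 genes varied more in Luxi cattle, as did 69.3% of all genes tested. B2M then had a coefficient of variation of 8.41% among Shandong black animals and 27.0% among Luxi animals. With 3 animals a breed or fewer, these are descriptions of the animals sampled.

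A reference panel is usually judged by ratios, since a shift that 2 genes share cancels in their ratio. The geNorm measure M of a gene is the mean SD of its log2 ratio to each other gene, and a lower M means that the gene keeps its proportion to the others. HPRT1 had the lowest M, at 0.513, followed by ACTB (0.538), UXT (0.603), TBP (0.650), PPIA (0.659), GUSB (0.689), YWHAZ (0.714), TOP2B (0.718) and B2M (1.07). ACTB with HPRT1 was the pair with the steadiest ratio (SD 0.225), followed by ACTB with PPIA (0.247). PPIA, whose own SD was large (0.53), thus kept a steady proportion to ACTB, and both genes were lowest, within each breed, in the animal numbered 2.

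When the gene with the highest M was removed step by step, B2M left first, then YWHAZ, TOP2B, TBP, PPIA, ACTB and GUSB, and HPRT1 with UXT was the last pair, with an SD of 0.292. This pair consists of the 2 X-linked genes. With exon coverage the order changed most for B2M, which went from the highest M to the lowest (0.442), ahead of HPRT1 (0.447) and ACTB (0.452), and YWHAZ became the first to be removed (0.719). The last pair was then ACTB with HPRT1 (0.242). HPRT1 and ACTB were among the 3 lowest of M on both scales.

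**Figure D5:**
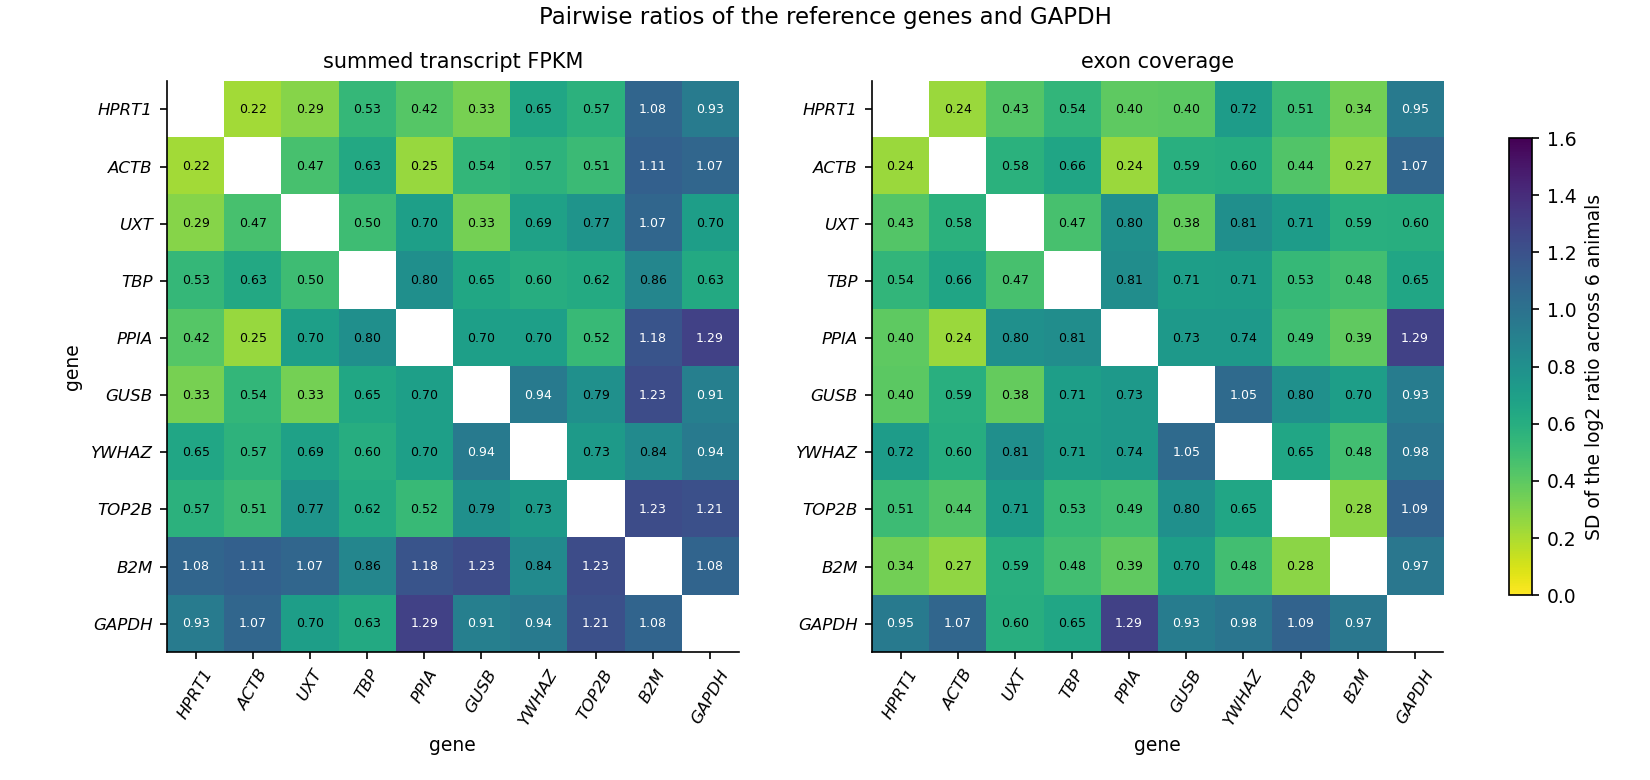
SD across the 6 animals of the log2 ratio of each pair among the 9 reference genes and GAPDH, from the summed FPKM (left) and from exon coverage (right), with darker cells for less steady ratios. The B2M row is dark on the left (0.84 to 1.23) and lighter on the right (0.27 to 0.70), except with GAPDH (0.97). ACTB keeps a ratio SD near 0.24 with HPRT1 and PPIA in both.

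GAPDH had a larger SD than 8 of the 9 reference genes from the summed FPKM, B2M being the exception, and a larger SD than all 9 with exon coverage. With TPM its SD (0.64) was below those of PPIA (0.68) and B2M (0.98). With quantile normalization GAPDH (0.61) was likewise below PPIA (0.63) and B2M (0.94). Its FPKM was 2135, 4413 and 3094 in B1, B2 and B3 and 3154, 9259 and 6875 in L1, L2 and L3. L2 and L3 lay above all Shandong black cattle and L1 lay among them. Its log2 fold change was 0.93 (95% interval -0.44 to 2.30, adjusted p = 0.39), so GAPDH was not called, and its interval reached well past 1 log2 unit. Without L1 the log2 fold change of GAPDH was 1.37 (95% interval 0.33 to 2.41, adjusted p = 0.091) and the breeds did not overlap, and without B2 they did not overlap either. Its SD of 0.79 exceeded that of 91.8% of all genes tested. Added to the panel, it had an M of 0.974, below only that of B2M (1.08). Without L2 its M was 0.769, below those of TOP2B (0.793) and B2M (1.15). Its least steady ratio was with PPIA (SD 1.29), as PPIA was lowest in L2, where GAPDH was highest.

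The geometric mean of the 9 reference genes, the usual way to combine a panel, was 12.1, 10.995 and 9.92 FPKM in B1, B2 and B3 and 11.9, 9.44 and 12.4 in L1, L2 and L3, with a highest value 1.31 times the lowest, against 1.67 times or more for each of the 9 genes alone. With TPM this did not hold, as the mean differed 1.72 times and UXT and TBP alone 1.49 and 1.62 times. The breeds overlapped, with a log2 difference of 0.03. Without B2M the difference was -0.08 and with exon coverage -0.03, but with reference transcripts only, where B2M falls to 0.143 FPKM in B2, it was 0.32. Set over this mean, GAPDH was 176, 401 and 312 times as high in B1, B2 and B3 and 264, 981 and 555 times in L1, L2 and L3, a difference of 0.90 on the log2 scale. Between the animals with the lowest and the highest ratio, B1 and L2, this ratio of GAPDH to the 9 genes differed 5.56 times.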

How the data were processed

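RNA-Seq of 6 muscle samples was used, 1 library per animal. Fastp (trimming), HISAT (alignment to ARS-UCD1.2) and StringTie (1.3.3b per the file headers) were run by the authors. The deposited values are the coverage, FPKM and TPM of each transcript of each library. No read counts were used, so precision was judged from coverage. Gene FPKM was the sum over reference transcripts plus unnamed transcripts on the same strand, where 50% or more of the bases fell on the exons of the gene, and 21.6 to 29.8% of a library belonged to no listed gene. A transcript not listed in an animal counted as 0.

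The breeds were compared with limma 3.58.1 in R 4.3.3 (eBayes with a trend) on log2(FPKM + 1), with Benjamini-Hochberg adjustment over 9781 genes. On simulated data of the same size it called 54.5% of genes changed by 1.5 log2 units and 95.5% of those changed by 3. p-values measure the spread between the animals sampled.

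The 9 genes and all lists were chosen with earlier results of these data known. The genes named are the 9, GAPDH, lists of other reference genes (23), human housekeeping genes (11), paralogs (18) and cell markers, the 5 genes most like the mean of the 9, and the 5 of smallest SD with a mean FPKM from 5 upwards, of which 1 is not reported here. XIST and LOC783680 were added after their values were seen. Alternatives were other scalings, pseudocounts, filters and transcript assignments, a replicate block, exon coverage, and leaving out each animal.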

Additional observations from a re-analysis of the deposited data

How the results depend on the processing

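No reference gene was called under any alternative, which says little where few genes could be called (3 of 9789 genes tested without B3, 10 of 9788 without B1 and 44 of 9881 without L2). The number without overlap between the breeds was 1 (YWHAZ), 1 with TPM (GUSB) and 1 with quantile normalization (HPRT1), and became 0 with size factors (which moved the median over all genes from 0.13 to 0.02 log2 units), 2 with reference transcripts only and 2 with 80% of bases on exons, and ranged from 1 to 4 when each animal was left out (4 without B2, where B2M, TBP and TOP2B joined YWHAZ, 3 without L3 and 2 without L1). Over all genes the same count was 2850 of 9781. It was 4049 of 9809 without B2, 3671 of 9811 without L3 and 4894 of 9707 without L1. With TPM it was 3050 of 12191, with quantile normalization 2821 of 9770 and with size factors 2781 of 9740. It was 2536 of 8944 with reference transcripts only and 2782 of 9571 with 80% of bases on exons. The number with an interval within 1 log2 unit, 5, became 3 with TPM, 3 with quantile normalization and 0 with a limit of 0.5. It was 4 with size factors and 4 with a pseudocount of 0.1. It was 3 of the 7 tested with a mean FPKM of at least 5. When each animal was left out it ranged from 3 to 6, the lowest being without B1. Over all genes this number was 5805 of 9781, and 664 with the limit of 0.5. It was 5088 of 12191 with TPM and 6111 of 9770 with quantile normalization. With size factors it was 6082 of 9740 and with a pseudocount of 0.1 it was 3611 of 9781. With a mean FPKM of at least 5 it was 1884 of 3942, and without B1 4878 of 9788. The log2 difference of the geometric mean, 0.03, became 0.32 with reference transcripts only and 0.35 with 80% of bases on exons, where B2M in B2 falls to its reference transcript of 0.143 FPKM and the log2 fold change of B2M is 2.66. The sign of the log2 fold change was kept in all alternatives for 6 of the 9 genes, changed in 1 of 18 for ACTB and for PPIA (without L2, 0.12 and 0.02) and in 4 of 18 for UXT. Leaving out 1 animal moved M by over 1 SD for B2M (0.536 without B3), GUSB (0.498 without L1) and TOP2B (0.521 without L3). The replicate numbers are only numbers, and the labels give no pairing. Same-numbered animals correlated at 0.075 to 0.087 in their deviations, and the other pairs at -0.107 to 0.008. Each animal thus correlated best with its own number, but all of these correlations are small. Whether the numbers mark a pairing was not tested. With the replicate block, 0 of the 9 were called, 6 lay within 1 log2 unit, and 135 genes of all tested were called in place of 251. Coverage per base was lowest for TBP and GUSB.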

Other observations

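Other genes in use as qPCR references ranged widely in spread. Over all genes tested 2.57% were called, 29.1% had no overlap, 59.3% had their interval within 1 log2 unit, and the median SD was 0.34. Of the 23 other reference genes, all tested, 6 had their interval within 1 log2 unit, and their median SD was 0.487. Among these 23, 7 had no overlap between the breeds and 1 was called. The called gene was TFRC, the transferrin receptor, at 10.2, 6.05 and 7.58 FPKM in Shandong black cattle and 45.4, 55.3 and 42.1 in Luxi cattle (log2 fold change 2.46, adjusted p = 0.0095, limma). The glycolytic enzymes LDHA (log2 fold change 1.35, adjusted p = 0.16), PGK1 (0.99, adjusted p = 0.15) and GPI (1.29, adjusted p = 0.18) had the same order of breeds as GAPDH, with L1 the lowest of the Luxi cattle for each, and none was called. SDHA, a subunit of succinate dehydrogenase, was 96.6, 94.0 and 104 FPKM against 78.1, 87.4 and 87.3, with no overlap and yet an SD of only 0.14. ATP5F1B, a subunit of ATP synthase, had an SD of 0.15.

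Of 11 genes listed as housekeeping genes from human RNA-Seq, 0 were called by limma (2 had an unadjusted p under 0.05). 1 of them had no overlap (REEP5) and 9 had their interval within 1 log2 unit, with a median SD of 0.304. Over all genes tested 2.57% were called and 21.8% had an unadjusted p under 0.05. Among the same genes 29.1% had no overlap and 59.3% had their interval within 1 log2 unit. A count of 0 called among 11 thus does not set this list apart. CHMP2A, of the ESCRT-III membrane machinery, was 12.7, 11.4 and 11.5 FPKM in Shandong black cattle and 9.39, 10.8 and 12.05 in Luxi cattle, with an SD of 0.14. GPI was the exception in this list, with an SD of 0.95.

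Among the 3942 genes whose mean FPKM reached 5, those with the smallest SD included POMP (0.05), HSPA9 (0.05), SRP54 (0.05) and SYNJ2BP (0.06). POMP, a proteasome assembly factor, ran from 17.3 to 18.7 FPKM over the 6 animals, a coefficient of variation of 3.32%. They were chosen for their small SD in these 6 animals, so that value is a description and no evidence of stability elsewhere. The 5 genes whose log2 levels kept the steadiest distance from the mean of the 9 reference genes over the 6 animals were CITED1 (SD of the distance 0.046), ATP6AP2 (0.055), KCTD3 (0.058), THAP2 (0.062) and CCDC25 (0.064).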
